A study of Homo sapiens with 9 samples.

Results

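The 43 genes described here encode the machinery that copies DNA in S phase and the enzymes that make its deoxynucleotides. They were chosen by name, from licensing factors to histone mRNA processing, by matching gene identifiers to GENCODE symbols. All 43 of the 43 were found among the 60609 genes of the deposited tables, and all 43 were among the 26412 genes with enough counts to be tested. The RNA came from MCF-10A, an established line of human breast epithelium that does not form tumours. WT is the parental line, and the other 2 genotypes are knock-in lines with either E545K or H1047R in PIK3CA, which encodes the p110-alpha catalytic subunit of PI 3-kinase. Each of the 3 genotypes had 3 libraries. The study's stated question was how transcription differs between isogenic cells that bear either change. During maintenance, in 5% horse serum, WT cells received epidermal growth factor (EGF) at 20 ng/ml whereas E545K and H1047R cells received none (0 ng/ml). All 3 genotypes spent the last 24 h in phenol red-free medium with 0.2 ng/ml EGF and 1% stripped serum, and all received insulin, hydrocortisone and cholera toxin throughout.

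The EGF history therefore moved with genotype in both comparisons with WT, and the effects of the 2 cannot be told apart. The H1047R libraries also stand in a count table of their own, so table and genotype cannot be told apart either. The labels name no independent clones and do not say whether the 3 libraries of a genotype were grown as separate cultures, so the p-values reflect how far these libraries scatter, and that scatter may be technical alone. Gene counts hold no base calls and do not check which PIK3CA change a library carries.

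Total counts, with each of the 2 mates of a pair counted, were 95091894 to 136132315 in WT, 95533991 to 134245702 in E545K and 377093507 to 605972919 in H1047R. The smallest member count was 80, for RAD51AP1 in WT replicate 3. Epithelial markers were abundant, with KRT5 at a mean of 13940, 12965 and 16289 CPM (counts scaled to the library size) in WT, E545K and H1047R, and all 9 epithelial markers were tested. Against WT, 1 of the 9 was called higher and 7 lower in E545K, and 2 higher and 6 lower in H1047R. The shares of all genes tested were 17.7% and 18.9% in E545K and 27.4% and 28.1% in H1047R. The summed epithelial level was 83.77% of the WT mean in E545K and 95.35% ± 6.05 (SD, n = 3) in H1047R. Of 8 fibroblast markers, COL1A2, COL3A1, LUM and POSTN stayed under 0.2 CPM on average in each genotype while COL1A1 and DCN were present, and the summed fibroblast level was 93.8 to 97.4, 67.2 to 70.1 and 69.5 to 85.9 CPM. Only 6 of the 8 had enough counts to be tested. Of these, 1 was called higher and 1 lower in E545K, and 1 higher and 3 lower in H1047R, both against WT. Of 5 immune markers, CD68 was present, at a mean of 10.9, 7.04 and 5.40 CPM in WT, E545K and H1047R, and PTPRC, CD3E, LYZ and TYROBP were near 0. Of 5 endothelial markers KDR alone exceeded 1 CPM on average, and the sum was 8.48 to 10.3, 10.4 to 12.2 and 22.0 to 23.6 CPM. The sum of 5 luminal markers was 37.6 and 35.2 CPM in WT replicates 2 and 3 and higher in WT replicate 1. For E545K libraries it was 34.8 to 35.0 CPM, and H1047R libraries had 57.1 to 60.1 CPM. The higher sum of H1047R did not hold for each marker. Against WT, 1 of the 5 was called higher and 2 lower in each knock-in line. Their median log2 fold change was -0.27 for E545K (lowest -2.01, highest 1.31). For H1047R the median was -0.39 (lowest -5.10, highest 1.07). The part of these marker differences in the results was not tested.

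Replication starts from origins that are licensed in G1 phase, when the origin recognition complex, CDC6 and CDT1 load the MCM2-7 helicase onto DNA. In S phase CDC45 and the GINS complex switch that helicase on, polymerases alpha and epsilon with primase start synthesis, and PCNA, a sliding clamp, holds further enzymes at the fork. Ribonucleotide reductase, thymidylate synthase and thymidine kinase supply the deoxynucleotides. Many of these genes are known targets of E2F transcription factors, so their transcripts rise as cells enter S phase. In bulk RNA, fewer cells in S phase and less RNA per cell cannot be told apart.

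Promoters were compared first, because many of these genes are textbook E2F targets. RefSeq promoters of 300 bases (250 before to 50 after a transcript start, GRCh38.p14) matched 39 of the 43 genes, with 51 promoters in all. The genes without a match were MCM4, MCM5, GINS4 and CCNE2. Both strands were searched for the E2F words TTTGGCGC, TTTCCCGC, TTTCGCGC and TTTGCCGC, counting overlapping matches. At least 1 word lay in 22 of the 51 member promoters (43.1%), against 3.3% of all 34943 promoters and 4.1% of the 21454 promoters of protein-coding genes. The box CCAAT lay in 58.8% of member promoters and 34.6% of all promoters. TTTGAA, the letters of a cell cycle element known as CHR, lay in 1.96%, which is the RRM1 promoter alone, and in 15.2% of all promoters. These matches describe letters and are not evidence of binding.

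The 6 promoters below belong to the members whose RNA differed most from the rest of the group. CDT1 and TK1 were the members lower in both knock-in lines. PCNA and GINS3 were higher in both. CLSPN had the largest rise in E545K, and RRM2 had the widest difference between the knock-in lines. Capitals mark E2F words and CCAAT boxes on either strand, and each sequence runs 5′ to 3′ along the gene.
CDT1, chr16:88803539-88803838, plus strand: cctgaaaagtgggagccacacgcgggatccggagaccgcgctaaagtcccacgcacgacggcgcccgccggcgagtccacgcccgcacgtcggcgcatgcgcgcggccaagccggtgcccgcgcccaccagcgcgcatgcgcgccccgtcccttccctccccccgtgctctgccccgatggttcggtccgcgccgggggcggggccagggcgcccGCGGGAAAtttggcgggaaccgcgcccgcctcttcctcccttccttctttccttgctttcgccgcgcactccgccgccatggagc
CLSPN, chr1:35769929-35770228, minus strand: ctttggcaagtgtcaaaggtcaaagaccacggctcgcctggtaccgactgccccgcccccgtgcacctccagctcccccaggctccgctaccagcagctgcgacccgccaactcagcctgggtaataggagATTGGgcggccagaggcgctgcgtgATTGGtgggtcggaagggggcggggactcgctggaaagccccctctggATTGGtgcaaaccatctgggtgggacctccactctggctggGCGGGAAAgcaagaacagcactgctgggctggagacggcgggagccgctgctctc
PCNA, chr20:5126573-5126872, minus strand: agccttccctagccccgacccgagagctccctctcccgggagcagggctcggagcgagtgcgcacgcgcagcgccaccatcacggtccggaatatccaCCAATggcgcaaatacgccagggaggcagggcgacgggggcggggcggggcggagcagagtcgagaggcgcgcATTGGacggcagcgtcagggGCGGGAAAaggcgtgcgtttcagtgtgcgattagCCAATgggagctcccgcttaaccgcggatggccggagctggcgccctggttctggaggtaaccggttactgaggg
GINS3, chr16:58392221-58392520, plus strand: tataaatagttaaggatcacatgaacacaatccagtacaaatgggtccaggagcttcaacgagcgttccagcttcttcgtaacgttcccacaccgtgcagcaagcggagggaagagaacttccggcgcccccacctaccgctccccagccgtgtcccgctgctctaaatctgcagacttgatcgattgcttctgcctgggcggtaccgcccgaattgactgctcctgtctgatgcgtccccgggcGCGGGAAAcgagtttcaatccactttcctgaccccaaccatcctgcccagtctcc
RRM2, chr2:10122489-10122788, plus strand: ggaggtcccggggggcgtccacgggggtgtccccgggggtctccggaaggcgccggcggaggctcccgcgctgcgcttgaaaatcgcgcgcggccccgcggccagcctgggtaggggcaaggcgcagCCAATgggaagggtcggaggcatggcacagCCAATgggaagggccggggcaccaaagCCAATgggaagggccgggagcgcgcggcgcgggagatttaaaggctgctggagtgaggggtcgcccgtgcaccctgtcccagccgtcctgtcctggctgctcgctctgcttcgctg
TK1, chr17:78187003-78187302, minus strand: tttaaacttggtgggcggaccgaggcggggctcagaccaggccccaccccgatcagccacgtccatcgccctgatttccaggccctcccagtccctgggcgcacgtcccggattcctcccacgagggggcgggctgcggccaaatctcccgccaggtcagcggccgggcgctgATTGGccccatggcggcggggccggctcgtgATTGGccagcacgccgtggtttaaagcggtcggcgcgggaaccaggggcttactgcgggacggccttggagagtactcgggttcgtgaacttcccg

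CDT1, CLSPN, PCNA and GINS3 carry an E2F word, read as GCGGGAAA in all 4 promoters, whose first base lies at -35, -5, -59 and -5 from the start. The RRM2 promoter shown holds no such word but CCAAT boxes at -123, -93 and -66, and the TK1 promoter shown holds CCAAT boxes at -77 and -46. RRM2, TK1 and PCNA each have a further promoter that is not shown. That of RRM2 holds a CCAAT box at -249 and no E2F word, and that of TK1 holds neither. The further PCNA promoter holds CCAAT boxes at -145 and -99 and no E2F word. Genes with and without a word were called in both directions. Of 21 genes with a word in at least 1 promoter, 15 rose and 1 fell in E545K against WT, and of 18 genes without one 8 rose and 1 fell. In H1047R against WT, 2 of the 21 rose and 18 fell, and of the 18 genes without a word 0 rose and 14 fell. By the same edgeR calls, at an adjusted p under 0.05, 17.7% of all genes tested rose and 18.9% fell in E545K, and 27.4% rose and 28.1% fell in H1047R. No test was run between these sets.

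In E545K against WT, replication genes were mostly higher, by modest amounts. In the edgeR quasi-likelihood test with Benjamini-Hochberg adjustment over all 26412 genes, called at an adjusted p under 0.05, 25 of the 43 genes rose, 2 fell and 16 were not called. Of all genes tested, 17.7% rose and 18.9% fell. Only CLSPN rose at least 2-fold, against 4.52% of all genes, and 0 members fell that far, against 2.58%. The median log2 fold change of the members was 0.33, with a range from -0.66 to 1.58, and that of all genes was 0.00. With only genes of at least 10 CPM in 3 libraries tested, which leaves 21 members, the members' median was 0.19. Summed over the 43 genes, the level was 560, 542 and 540 CPM in the WT libraries and 637, 642 and 643 CPM in the E545K libraries, so the 2 genotypes did not overlap.

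CLSPN encodes claspin, which carries the replication stress signal to the kinase CHK1. The 3 WT libraries held 1.93, 2.03 and 1.76 CPM of it and the E545K libraries 5.92, 6.11 and 5.12 CPM, and all 3 E545K libraries lay far above WT. The log2 fold change was 1.58 ± 0.15 (SE) at an adjusted p of 7.1e-07 in the edgeR test. DTL, the substrate receptor of the ubiquitin ligase that removes CDT1 in S phase, stood between 2.60 and 3.55 CPM in WT and at 5.61, 6.19 and 5.52 CPM in E545K, a log2 fold change of 0.92 ± 0.24. MCM10, which helps the helicase start, was at 1.53, 1.65 and 1.55 CPM in WT and 2.92, 2.76 and 3.14 CPM in E545K, a change of 0.90 ± 0.12. For both genes every E545K library was above every WT library.

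The 2 members that went the other way were CDT1 and TK1. CDT1, the loader of the MCM helicase, stood at 21.0, 19.8 and 19.4 CPM in WT and 12.2, 13.9 and 11.8 CPM in E545K, without overlap. Its log2 fold change was -0.66 ± 0.07 at an adjusted p of 4.2e-06 in the edgeR test. TK1, the thymidine kinase of the salvage route, was at 29.6, 29.6 and 26.9 CPM in WT and between 23.5 and 24.5 CPM in E545K, a change of -0.26 ± 0.07. These 2 genes have the highest exon GC content of the 43 (64.3% for CDT1 and 62.1% for TK1), and across all genes tested the log2 fold change fell with GC content (Spearman's rho -0.15). With a GC correction TK1 was no longer called (-0.15, adjusted p 0.11, edgeR), and with library totals in place of TMM scaling its change was -0.16 (adjusted p 0.059), while CDT1 was called under all 20 alternatives that were run.

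By role, 5 of the 6 clamp and lagging strand genes were higher in E545K. PCNA rose by 0.77 ± 0.06, FEN1, the flap endonuclease that trims Okazaki fragments, by 0.66 ± 0.10, the clamp loader subunit RFC3 by 0.41 ± 0.10, LIG1, the ligase that seals the fragments, by 0.33 ± 0.05 and RFC4 by 0.25 ± 0.07. RFC5 had a value of 0.13 and was not called. PCNA itself was at 22.8, 22.5 and 23.8 CPM in WT and 39.3, 40.8 and 38.1 CPM in E545K. FEN1 was at 7.13 to 7.38 CPM in WT and 11.2 to 11.6 CPM in E545K, so both genes were well separated. The RFC4 call was lost when WT replicate 1 or 2 or E545K replicate 2 or 3 was left out, with adjusted p from 0.05 to 0.077 in edgeR, and with a GC correction (0.20, adjusted p 0.0525). Without a low-count filter the RFC4 call was lost too (adjusted p 0.0642, edgeR).

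Of the 10 licensing genes, 5 rose in E545K and 1, CDT1, fell. CDC6, the ATPase that works with CDT1, rose by 0.85 ± 0.11 and ORC6, an origin recognition subunit, by 0.80 ± 0.14. CDC6 was at 3.45 to 3.95 CPM in WT and 6.12 to 6.96 CPM in E545K. The helicase subunits MCM4 (0.31 ± 0.05), MCM6 (0.31 ± 0.09) and MCM3 (0.29 ± 0.07) also rose, whereas MCM5, MCM7, MCM2 and ORC1 had values of 0.13, 0.12, -0.03 and -0.10 and were not called. The MCM6 call was lost without WT replicate 3 or E545K replicate 1 or 3 (adjusted p 0.052 to 0.069, edgeR) and with a GC correction (0.26, adjusted p 0.0656). MCM7 was called under 10 of the 20 alternatives. These included a GC correction (0.19), 1 weight per genotype in limma voom, a fit of the 2 genotypes alone, and leaving out WT replicate 1 or H1047R replicate 1 or 3 (0.12 to 0.16). MCM5 was called under 4 of the 20. MCM2 shares 23.6% of its exon bases with genes on the other strand.

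Helicase activation genes included 4 of 6 that rose in E545K. After MCM10 came CDC45, the helicase's partner (0.49 ± 0.16), and the GINS subunits GINS1 (0.42 ± 0.08) and GINS3 (0.27 ± 0.08), with GINS4 (0.33) and GINS2 (0.14) not called. CDC45 was at 1.84, 1.84 and 1.73 CPM in WT and 2.89, 1.92 and 2.76 CPM in E545K, so E545K replicate 2 lay near WT. Its call was lost without any 1 of the WT libraries or E545K replicate 1 or 3, at adjusted p from 0.062 to 0.15 in edgeR. The GINS3 call was lost without WT replicate 1 or 3 or E545K replicate 2 or 3 (adjusted p 0.063 to 0.10, edgeR). It was also lost with no low-count filter (adjusted p 0.0617) and with a GC correction plus replicate block (adjusted p 0.0572, both edgeR). GINS4 was called without H1047R replicate 1 (0.33, adjusted p 0.0057, edgeR), a library that enters this comparison only through the shared scaling and spread. In all it was called under 5 of the 19 alternatives in which it was tested. Among them were a fit of the 2 genotypes alone (adjusted p 0.0010, edgeR) and limma voom with 1 weight per genotype (adjusted p 0.0041).

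Of the 6 polymerase and primase genes, 2 (33.3%) were higher in E545K, beside 22.9% of all protein-coding genes. POLA2, the regulatory subunit of polymerase alpha, rose by 0.63 ± 0.08 and POLE, the catalytic subunit of polymerase epsilon, by 0.17 ± 0.05. POLE2, PRIM2, POLA1 and PRIM1 had values of 0.35, 0.12, 0.11 and -0.11 and were not called. The POLE call was lost without WT replicate 2 or E545K replicate 1 (adjusted p 0.062 and 0.052, edgeR). POLA2 shares 39.4% of its exon bases with other genes, whose reads were counted for both.

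For nucleotide supply, RRM2 rose by 0.73 ± 0.15 and TYMS, which makes thymidylate, by 0.57 ± 0.07 in E545K, while RRM1, the large subunit of ribonucleotide reductase, had a value of 0.01. TYMS shares 47.5% of its exon bases with genes on the other strand, and counting did not use strand, so their reads cannot be told apart. The 5 checkpoint and repair genes had 4 rises, with CLSPN and DTL joined by EXO1, an exonuclease (0.48 ± 0.13), and BRCA1, a factor of recombination repair (0.48 ± 0.08). RAD51AP1, which also acts in recombination repair, had a value of 0.54 and was not called. It was called under 5 of the 19 alternatives in which it was tested. These included leaving out H1047R replicate 3 (adjusted p 0.015) and a fit of the 2 genotypes alone (adjusted p 0.0042, both edgeR). Limma voom with 1 weight per genotype also called it (adjusted p 0.0089). Of 3 chromatin genes, UHRF1, which maintains DNA methylation behind the fork, rose by 0.36 ± 0.09. The histone chaperone subunits CHAF1A and CHAF1B had values of 0.10 and 0.07. The G1/S cyclins CCNE2 (0.56 ± 0.10) and CCNE1 (0.44 ± 0.08) rose, and SLBP, which binds the stem-loop of histone mRNA, stayed at 31.7 to 33.0 CPM in the 6 libraries with a value of 0.00.

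**Figure D1:**
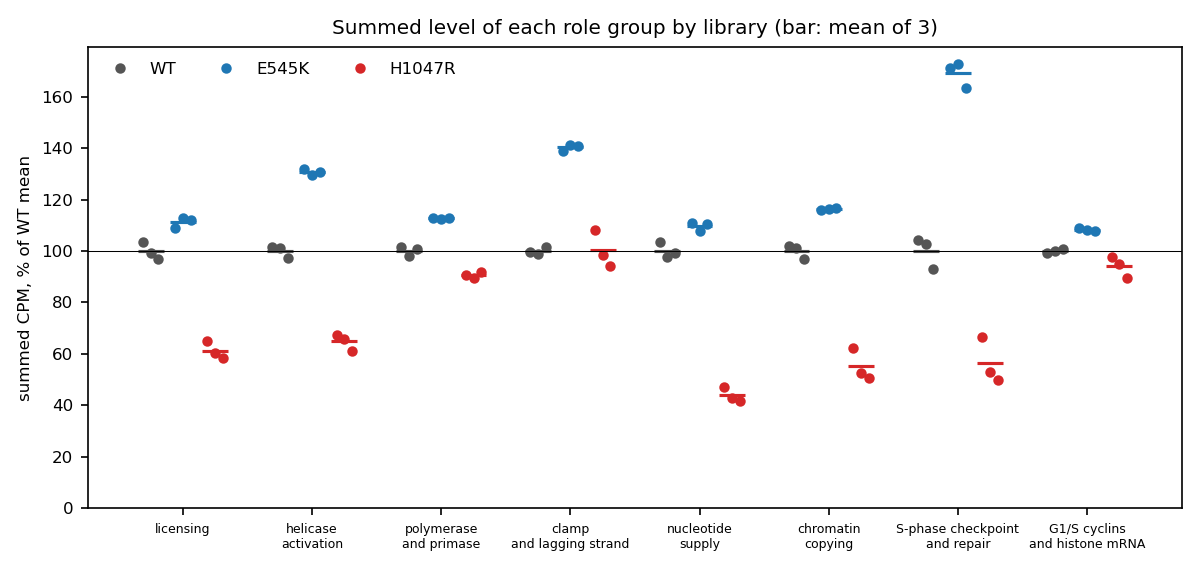
Summed level of each role group in every library, as a percent of the WT mean (vertical axis, linear from 0; points are libraries, bars are means of 3). E545K lies above WT in all 8 groups, most for checkpoint and repair (169%), and H1047R lies lowest for nucleotide supply (43.9%). Abundant genes weigh most: in WT, SLBP gave 32.6 of 41.3 CPM in its group and RRM1 62.9 of 118.7 CPM. A higher sum is not a rise of each gene. In E545K 2 of 6 polymerase and primase genes and 1 of 3 chromatin genes were called higher. Of 4 nucleotide supply genes 2 were called higher and 1 lower.

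In H1047R against WT these 43 genes were mostly lower, many of them by 2-fold or more. In the edgeR test 34 of the 43 genes fell, 2 rose and 7 were not called, where 28.1% of all genes tested fell and 27.4% rose. Among protein-coding genes alone, 38.2% fell and 29.0% rose. Of the members 16 fell at least 2-fold, against 7.39% of all genes, and 0 rose at least 2-fold, against 10.0%. The median log2 fold change was -0.69, with a range from -2.90 to 0.38, beside 0.02 for all genes. Testing only genes of at least 10 CPM in 3 libraries gave a median of -0.35 over 21 members. The summed level was 391, 363 and 353 CPM in the H1047R libraries, all below the 540 to 560 CPM of WT.

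The 3 largest falls were in TK1, RRM2 and CDT1. TK1 was at 4.14, 3.43 and 3.96 CPM in H1047R against 26.9 to 29.6 CPM in WT, a log2 fold change of -2.90 ± 0.07 or 7.48-fold lower (adjusted p 1.1e-13, edgeR). RRM2, the small subunit of ribonucleotide reductase and the one made in S phase, was at 14.2, 13.4 and 12.8 CPM in WT and 3.32, 2.12 and 1.73 CPM in H1047R. Its change was -2.51 ± 0.16, or 5.71-fold lower (adjusted p 4.9e-09, edgeR). CDT1 was at 4.59, 4.08 and 4.70 CPM in H1047R, a change of -2.17 ± 0.07 or 4.51-fold lower (adjusted p 4.3e-12, edgeR). None of the 3 genes overlapped between these genotypes, and of the 3 RRM2 varied most among the H1047R libraries (coefficient of variation 34.8%). The highest coefficient of the 43 genes in H1047R was that of DTL, at 50.5%.

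PCNA and GINS3 went against the group in H1047R. PCNA was at 33.3, 28.9 and 28.0 CPM, above the 22.5 to 23.8 CPM of WT in each library, and rose by 0.38 ± 0.06 (adjusted p 7.1e-05, edgeR). GINS3, a subunit of the GINS complex, was at 4.12, 4.32 and 3.87 CPM in WT and 5.18, 5.59 and 5.18 CPM in H1047R, and rose by 0.37 ± 0.08 (adjusted p 0.0012, edgeR). GINS3 shares 10.9% of its exon bases with other genes. Both were called under each alternative in which they were tested.

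**Figure D2:**
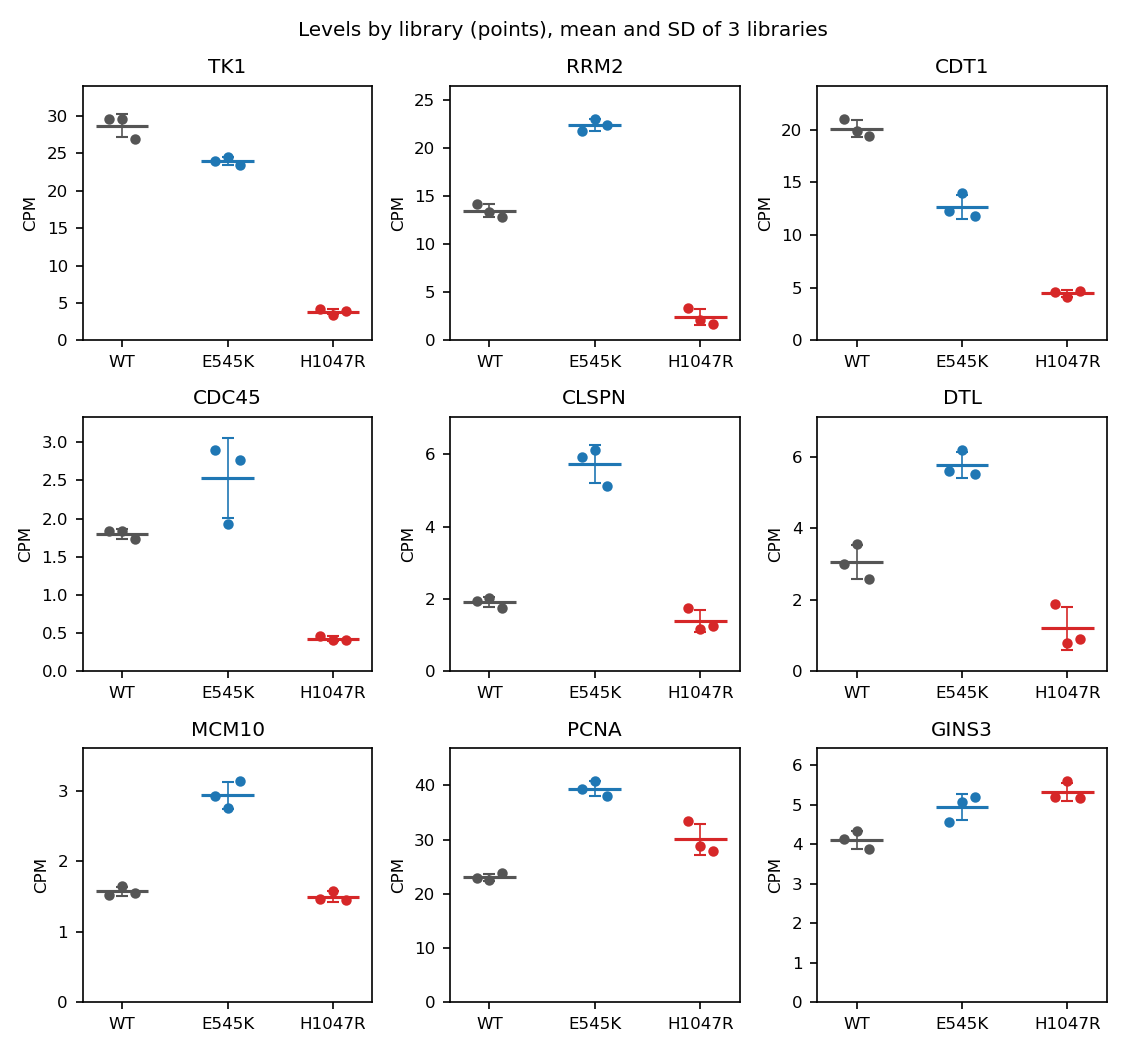
CPM (linear axes from 0) of 9 members in each library by genotype; points are libraries, lines are the mean and SD of 3. TK1, RRM2, CDT1 and CDC45 are lowest in H1047R, and PCNA and GINS3 lie above WT in both knock-in lines.

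All 4 nucleotide supply genes fell in H1047R, and their summed level was 43.9% ± 2.86 (SD, n = 3) of the WT mean. RRM1 was at 60.6 to 64.6 CPM in WT and 33.9 to 37.5 CPM in H1047R, a fall of 0.82 on the log2 scale, and TYMS had a fold change of -0.42 ± 0.07. Licensing genes fell in 9 of 10 cases. Beside CDT1 these were ORC1, the largest origin recognition subunit (-1.60 ± 0.10), MCM5 (-1.59 ± 0.07), MCM2 (-1.21 ± 0.07), MCM6 (-1.14 ± 0.09), CDC6 (-0.89 ± 0.11), ORC6 (-0.71 ± 0.14), MCM3 (-0.62 ± 0.07) and MCM7 (-0.26 ± 0.05). ORC1 was at 5.71 to 6.16 CPM in WT and 1.62 to 2.11 CPM in H1047R. MCM4 had a value of -0.08 and was not called.

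Helicase activation genes fell in 4 of 6 cases in H1047R, namely CDC45 (-2.08 ± 0.17), GINS4 (-1.70 ± 0.15), GINS2 (-1.33 ± 0.12) and GINS1 (-0.72 ± 0.08), and MCM10 had a value of -0.07. CDC45 was at 0.463, 0.405 and 0.411 CPM, which rests on 161, 234 and 214 counts. Among polymerase and primase genes 5 of 6 fell. The falls were largest for POLE2, the second subunit of polymerase epsilon (-1.04 ± 0.18), and PRIM1, the catalytic subunit of primase (-1.01 ± 0.09), which shares 22.2% of its exon bases with other genes. PRIM2 (-0.29 ± 0.06), POLA1 (-0.23 ± 0.06) and POLA2 (-0.19 ± 0.07) followed, and POLE, at 26.8 to 29.0 CPM, had a value of 0.08. The POLA2 call was the weakest of the 34 (adjusted p 0.044, edgeR) and was lost when any single library other than WT replicate 3 or H1047R replicate 2 was left out (adjusted p 0.062 to 0.14). It was lost under 14 of the 19 alternatives in which POLA2 was tested. Among these were upper-quartile scaling (adjusted p 0.155, edgeR) and limma voom with 1 weight per genotype (adjusted p 0.12).

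The clamp and lagging strand group was split in H1047R, with 3 of 6 lower and PCNA higher, and its summed level was 100.4% ± 7.19 (SD, n = 3) of WT. RFC4 (-0.69 ± 0.07), RFC3 (-0.36 ± 0.10) and LIG1 (-0.27 ± 0.05) fell, and FEN1 and RFC5 had values of -0.14 and -0.12. FEN1 was at 7.92 CPM in H1047R replicate 1 and 5.97 and 5.82 in the others, and it was called without replicate 1 (-0.29, adjusted p 0.00064, edgeR). All 5 checkpoint and repair genes fell. These were EXO1 (-1.62 ± 0.13), DTL (-1.36 ± 0.25), RAD51AP1 (-1.18 ± 0.23), BRCA1 (-0.53 ± 0.07) and CLSPN (-0.46 ± 0.15). DTL was at 1.90 CPM in H1047R replicate 1 and 0.790 and 0.918 CPM in the others, all below WT. CLSPN, at 1.74, 1.16 and 1.27 CPM, was no longer called without WT replicate 2 or H1047R replicate 2 (adjusted p 0.056 and 0.072, edgeR).

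All 3 chromatin genes fell in H1047R, with UHRF1 at -1.35 ± 0.09, CHAF1B at -0.94 ± 0.09 and CHAF1A at -0.32 ± 0.07. CCNE1 fell (-0.22 ± 0.08), a call lost without WT replicate 1 or 2 or H1047R replicate 2 or 3 (adjusted p 0.064 to 0.15, edgeR). The call was also lost with upper-quartile scaling, no low-count filter or protein-coding genes only (adjusted p 0.0965 to 0.104, edgeR). CCNE2 and SLBP had values of 0.21 and -0.10 and were not called. SLBP and RFC5 were called lower with a GC correction (-0.16 and -0.20, adjusted p 0.0243 and 0.0289, edgeR). CCNE2 was called higher without H1047R replicate 3 (0.24, adjusted p 0.048) and SLBP lower without H1047R replicate 1 (-0.11, adjusted p 0.038, both edgeR). CCNE2 shares 37.1% of its exon bases with other genes.

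The H1047R libraries were more scattered than the others. The median coefficient of variation of the 43 genes was 8.72% in H1047R, 4.09% in WT and 4.65% in E545K. H1047R replicate 1 lay above its genotype's mean for 33 members and replicate 3 below it for 37. Over all genes the biological coefficient of variation was 0.219 within H1047R, 0.0328 within WT and 0.0285 within E545K. The model pooled these to 0.118, which makes it lenient for H1047R and strict for E545K against WT. With 1 weight per genotype in limma voom, 33 members fell and 2 rose in H1047R against WT. In E545K against WT 29 rose and 2 fell. Of the 26412 genes in that fit, 7101 fell and 7001 rose in H1047R. In E545K 6139 of them rose and 6353 fell, more than the 4665 and 4998 of the main test. Protein-coding genes took 77.6% to 78.1% of counts in H1047R and 85.2% to 86.0% in the other 6 libraries. Fitted on protein-coding genes only, 32 members fell and 4 rose in H1047R against WT, the added rises being CCNE2 and POLE. Of the 15748 genes in that fit, 5450 fell and 5555 rose.

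**Figure D3:**
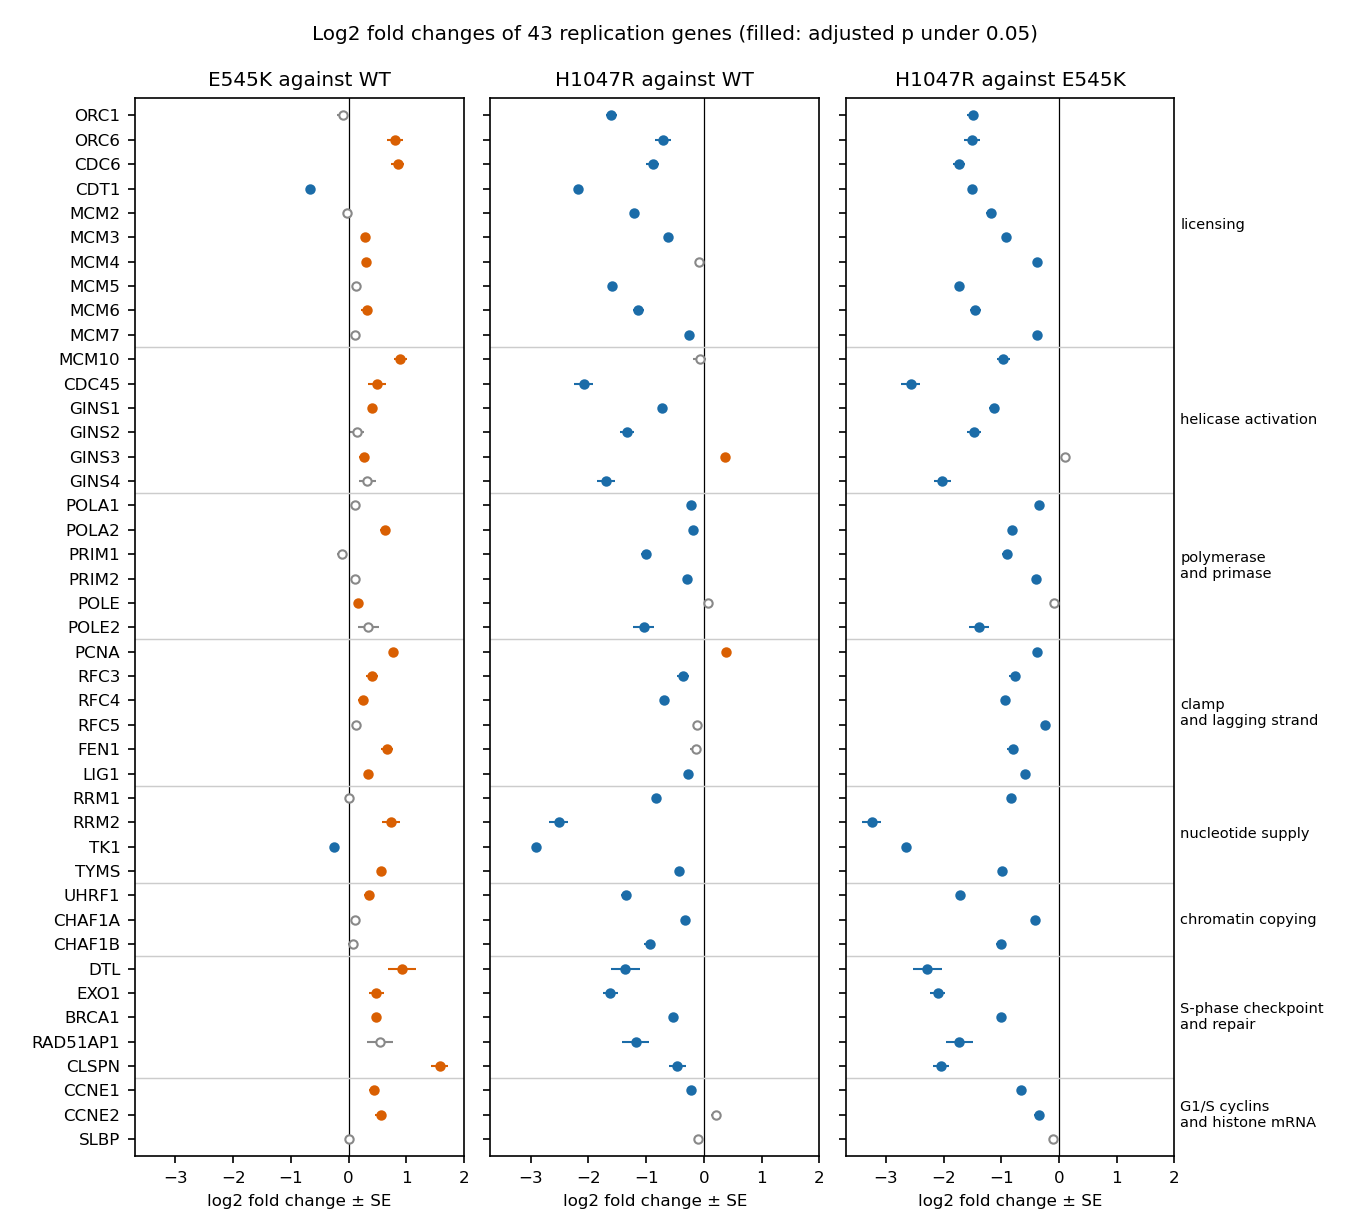
Log2 fold changes (horizontal axis, ± SE of the edgeR fit) of the 43 genes in the 3 comparisons, grouped by role. Filled points passed an adjusted p under 0.05, in orange where higher and blue where lower, and open points did not: 25 rose and 2 fell in E545K, and 34 fell and 2 rose in H1047R.

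Between the knock-in lines, both kept without EGF, H1047R was lower for nearly the whole group. In the edgeR test 40 of 43 genes were lower in H1047R than in E545K and 0 were higher, where 27.3% and 25.9% of all genes were. Among protein-coding genes alone, 37.1% were lower and 27.7% higher. Of the members 21 were at least 2-fold lower, against 7.24% of all genes, and 0 at least 2-fold higher, against 7.74%. DESeq2 and limma voom also called 40 lower and 0 higher. Over all genes, DESeq2 called 7396 lower and 6910 higher of 26406, and limma voom 6808 lower and 6698 higher of 26412. The median log2 fold change was -0.99, with a range from -3.24 to 0.11, beside 0.02 over all genes. This comparison shares its libraries with the other 2 and is not independent of them.

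RRM2 differed most between the knock-in lines, at 21.8, 23.0 and 22.4 CPM in E545K and 3.32, 2.12 and 1.73 CPM in H1047R. The log2 fold change was -3.24 ± 0.16, or 9.48-fold lower (adjusted p 4.7e-10, edgeR). TK1 followed with -2.65 ± 0.07 (6.26-fold lower) and CDC45 with -2.57 ± 0.17. CLSPN, with the 1.58 rise in E545K, was 4.13-fold lower in H1047R than in E545K. DTL (-2.28 ± 0.25), EXO1 (-2.10 ± 0.13) and GINS4 (-2.02 ± 0.15) were also lower by more than 4-fold. PCNA, though higher than WT in both lines, was lower in H1047R than in E545K (-0.39 ± 0.06). The uncalled genes were GINS3 (0.11), POLE (-0.09) and SLBP (-0.10). POLE was called without H1047R replicate 3 (-0.12, adjusted p 0.025) and SLBP without H1047R replicate 1 (-0.11, adjusted p 0.037, both edgeR).

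Fold changes covered a wide range among subunits of 1 complex. MCM2-7 is a ring of 6 different proteins, and their RNA levels per kb of exon in WT ran from MCM3 at 8.46 ± 0.224 CPM per kb (SD, n = 3) through MCM7 at 7.31 ± 0.478 and MCM4 at 5.76 ± 0.151 to MCM2 and MCM6, at 4.90 ± 0.149 and 4.87 ± 0.128, and MCM5 at 2.33 ± 0.106. MCM2 and MCM6 did not differ beyond their spread. The highest was 3.64 times the lowest in WT, 4.05 times in E545K and 7.89 times in H1047R. In H1047R MCM7 was at 6.08 ± 0.130 CPM per kb, MCM3 at 5.50 ± 0.641 and MCM4 at 5.46 ± 0.156. The libraries of MCM3 overlapped those of both MCM7 and MCM4, and MCM5 was last at 0.772 ± 0.0790. The ratio of MCM4 to MCM5 per kb was 2.42 to 2.55 in WT libraries, 2.52 to 3.08 in E545K and 6.50 to 7.59 in H1047R. H1047R did not overlap the others, and no test was run on the ratio.

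**Figure D4:**
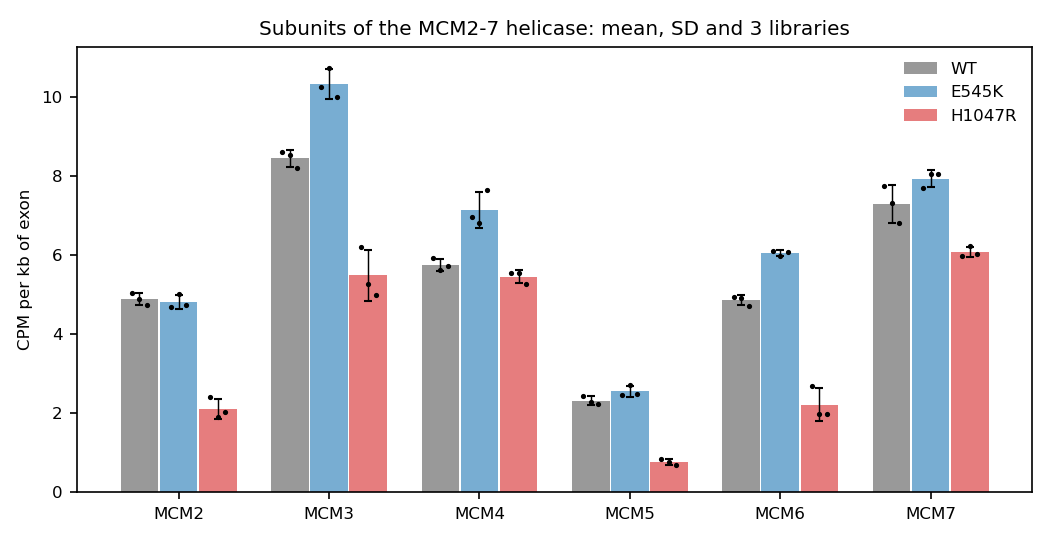
Levels of the 6 MCM2-7 subunits in CPM per kb of exon (bars start at 0 and give the mean, error bars the SD, points the 3 libraries). In H1047R MCM2, MCM5 and MCM6 are well below WT while MCM4 and MCM7 lie closer to it.

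GINS is a ring of 4 proteins, and in H1047R its subunits GINS4, GINS2 and GINS1 fell while GINS3 rose. The ratio of GINS3 to GINS4 per kb was 0.954 to 1.00 in WT, 0.856 to 1.08 in E545K and 3.04 to 5.17 in H1047R. GINS4 shares 23.4% of its exon bases with genes on the other strand, and their reads cannot be told apart. In ribonucleotide reductase the ratio of RRM1 to RRM2 per kb was 9.70 to 10.9 in WT, 5.67 to 6.52 in E545K and 24.4 to 42.3 in H1047R. The low point of the range in H1047R was replicate 1. Exon lengths here are of all annotated transcripts together, so the ratio compares genotypes better than it compares genes.

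Among 28 other genes of nucleotide metabolism, 11 rose and 3 fell in E545K, and 3 rose and 21 fell in H1047R, both against WT. In H1047R against E545K, 2 were higher and 25 lower. The shares of all genes tested that rose and fell were 17.7% and 18.9% in E545K and 27.4% and 28.1% in H1047R, both against WT. Between the knock-in lines 25.9% were higher in H1047R and 27.3% lower. Among protein-coding genes 38.2% fell in H1047R against WT, beside 75% of the 28. RRM2B, the p53-inducible small subunit of ribonucleotide reductase, went the opposite way to RRM2 in H1047R. WT libraries held 48.4, 46.9 and 47.3 CPM, E545K libraries 92.3, 87.9 and 86.9 CPM and H1047R libraries 111, 115 and 95.9 CPM. It rose by 0.90 on the log2 scale in E545K and by 1.17 in H1047R. The ratio of RRM2B to RRM2 per kb was 5.62 to 6.08 in WT, 6.30 to 6.98 in E545K and 55.1 to 91.4 in H1047R. IMPDH1, a rate-limiting enzyme of guanine nucleotide synthesis, fell in both knock-in lines (-0.21 in E545K and -1.18 in H1047R), and so did its paralog IMPDH2 in E545K (-0.30). DTYMK, the kinase that follows TK1 on the way to dTTP, fell in H1047R (-0.88), as did NME1, a nucleoside diphosphate kinase (-0.77), whose reads can be shared with its neighbour NME2. TK2, the mitochondrial thymidine kinase, fell in E545K (-0.12) and rose in H1047R (0.21), and CMPK1, a pyrimidine nucleotide kinase, rose in H1047R (0.15). ATIC, a late enzyme of purine synthesis, rose in E545K (0.35), as did NME1 (0.32).

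Among 36 other replication factors, 19 rose and 3 fell in E545K, and 5 rose and 18 fell in H1047R, both against WT. In H1047R against E545K, 1 was higher (RPA2, a subunit of the single-strand binding protein, 0.18) and 24 were lower. Of all genes tested, 17.7% rose and 18.9% fell in E545K, and 27.4% rose and 28.1% fell in H1047R, both against WT. Between the knock-in lines 25.9% were higher in H1047R and 27.3% lower. Among protein-coding genes 38.2% fell in H1047R against WT, beside 50% of the 36. GMNN encodes geminin, the inhibitor of CDT1, and it rose in both knock-in lines while CDT1 fell. WT libraries held 9.24, 9.57 and 9.23 CPM of GMNN, E545K libraries 14.0, 14.6 and 13.6 CPM and H1047R libraries 16.3, 14.2 and 13.0 CPM, with log2 fold changes of 0.59 and 0.63. The ratio of CDT1 to GMNN per kb was 1.93 ± 0.0952 (SD, n = 3) in WT, and it was 0.807 ± 0.0444 in E545K and 0.278 ± 0.0393 in H1047R. For this ratio no 2 genotypes overlapped. TOP1, the topoisomerase that relieves twist ahead of the fork, and DONSON, a helicase assembly factor, also rose in H1047R, by 0.57 and 0.45. The largest falls in H1047R were ASF1B, a histone chaperone (-2.04), RNASEH2A, which removes ribonucleotides from DNA (-1.97), and CHTF18, of an alternative clamp loader (-1.37).

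**Figure D5:**
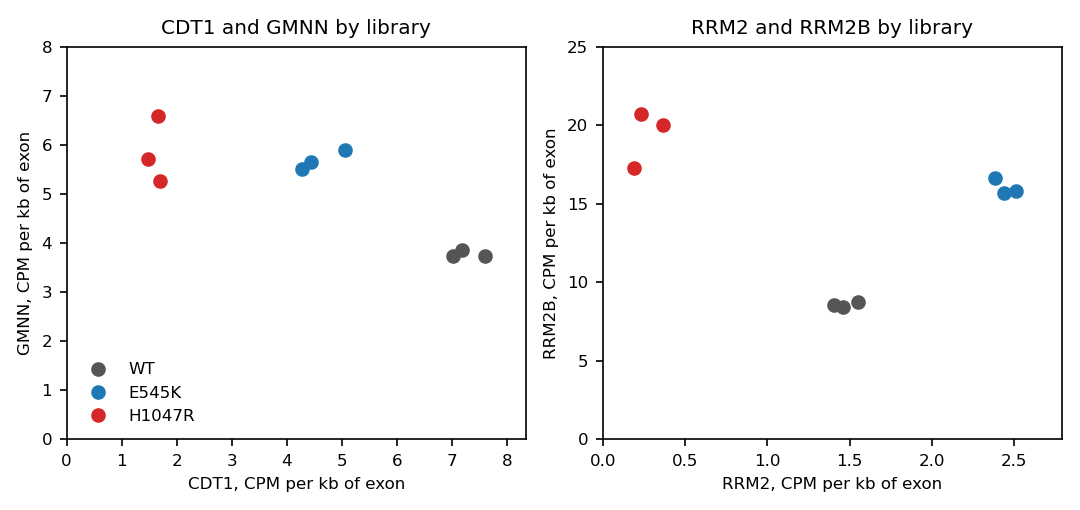
Left, GMNN against CDT1, and right, RRM2B against RRM2, both in CPM per kb of exon (linear axes from 0), 1 point per library. CDT1 falls from WT to E545K to H1047R while GMNN is higher in both knock-in lines, and H1047R joins the lowest RRM2 to high RRM2B.

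In E545K the largest rises among these other factors were CDC7, the kinase that fires licensed origins (0.97), RPA3, a further subunit of the single-strand binding protein (0.77), and POLD2, a subunit of polymerase delta (0.73). RPA3 and POLD2 lie on chromosome 7 below 60 Mb, where the median log2 fold change of 243 protein-coding genes was 0.78 in E545K against WT and 0.04 in H1047R against WT. In E545K the values of both lie near that median. In H1047R against WT both were called lower, RPA3 at -0.50 and POLD2 at -0.70, away from the regional median of 0.04. For the 43 members, the median of protein-coding neighbours within 5 Mb on each side ran from -0.20 to 0.19 in E545K against WT and from -0.36 to 0.21 in H1047R against WT. It was -0.01 around CLSPN in E545K, and in H1047R it was -0.09 around TK1, -0.10 around RRM2 and -0.08 around CDT1. The 43 members lie on 20 chromosomes, with at most 4 on any one.

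The 3 falls among these factors in E545K, outside the members, were TICRR, an origin firing factor (-0.43), RNASEH2C (-0.21) and CHTF18 (-0.17). Of 17 cell cycle genes outside the replication lists, 12 were higher and 2 lower in E545K, and 4 were higher and 9 lower in H1047R, both against WT. Their summed level was 135.8% ± 0.386 of the WT mean in E545K and 125.5% ± 6.53 in H1047R (SD, n = 3), above WT in both lines. CDKN1A made up much of that sum, with a mean of 274 CPM in WT and 464 CPM in H1047R. In H1047R against E545K, 4 of the 17 were higher and 12 lower. Over all genes tested, 17.7% rose and 18.9% fell in E545K, and 27.4% rose and 28.1% fell in H1047R, both against WT. Between the knock-in lines 25.9% of all genes were higher in H1047R and 27.3% lower. The 4 cell cycle genes higher in H1047R than WT made up 23.5% of the 17, below the share of all genes. E2F7, a repressor of the E2F family (1.10), CCND1, the cyclin of G1 (0.99), and CDK1, the kinase of mitosis (0.72), rose in E545K, and CDKN1B, an inhibitor of cyclin-dependent kinases (-0.43), and CDK2 (-0.21) fell. In H1047R the mitotic topoisomerase TOP2A (-2.13), the proliferation marker MKI67 (-1.95) and CCNA2, the cyclin of S phase (-1.74), fell. MKI67 was at 36.0, 34.6 and 33.3 CPM in WT and 10.7, 7.72 and 8.57 in H1047R. E2F2 (2.17), CCND1 (0.98) and CDKN1A, the p21 inhibitor (0.76), rose in H1047R. E2F2, a transcription factor that activates replication genes, was at 1.34, 1.05 and 1.13 CPM in WT and 6.23, 5.30 and 4.47 in H1047R, so it and most of the 43 members differed from WT in opposite directions.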

How the data were processed

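RNA-seq gene counts of 9 libraries were used. Per the file headers, the authors counted reads over exons with featureCounts 2.0.0 and GENCODE 32 (hg38), unstranded, each mate by itself, and a read over several genes for each of them. Per the submitters' processing notes, featureCounts was used with STAR, SAMtools 1.5, FastQC, cutadapt and Trim Galore 0.4.0. Overlapping genes therefore share reads. Names came from GENCODE 44, which matched 60295 of 60609 identifiers.

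The main test was edgeR 4.0.16 in R 4.3.3, run on the counts as deposited, with filterByExpr, TMM scaling, 1 quasi-likelihood model over 9 libraries, and Benjamini-Hochberg adjustment over 26412 genes. CPM values use library sizes after TMM scaling. The SE is the log2 fold change divided by the square root of the F statistic, an approximation. The script was tested on simulated counts. Alternatives were DESeq2 1.42.0, limma 3.58.1 voom, other scalings and filters, GC correction, a replicate block and leaving out each library. The 43 members and the other lists were chosen with earlier results of these data known. All members could be named; values per library were given for the 3 largest called rises and falls of a comparison and for members against the majority, and up to 3 each way were named from other lists. Further per-library values and ratios (FEN1, RRM1, MCM4 to MCM5 and the like) were chosen after their values were seen. One marker gene is not reported here.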

Additional observations from a re-analysis of the deposited data

How the results depend on the processing

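Over 20 alternatives, 20 of the 25 rises and 1 of the 2 falls in E545K against WT were called every time the gene was tested, as were both rises and 31 of the 34 falls in H1047R against WT and all 40 falls in H1047R against E545K. Leaving out 1 library gave 21 to 27 rises and 2 falls in E545K, 2 to 3 rises and 31 to 35 falls in H1047R against WT, and 40 to 41 falls and 0 rises between the knock-in lines. These fits tested 26299 to 27642 genes. Of all these genes 3773 to 5502 rose and 4192 to 5749 fell in E545K. In H1047R against WT 6377 to 7752 rose and 6700 to 8039 fell. Between knock-in lines 6037 to 7420 were higher and 6415 to 7875 lower. With library totals, a GC offset, or a GC offset with replicate block, E545K falls numbered 1 in place of 2. Over all 26412 genes, falls in these fits numbered 3606, 4443 and 4325. Requiring at least 10 CPM in 3 libraries left 14 rises in E545K, 15 falls in H1047R and 19 falls between knock-in lines, because fewer members were tested, and member medians of 0.19 and -0.35 against WT (from 0.33 and -0.69). Upper-quartile scaling and protein-coding genes only gave 4 rises in H1047R, where 8161 of 26412 and 5555 of 15748 genes rose. Library totals took the median of all genes from 0.00 to 0.10 in E545K against WT and from 0.02 to -0.12 between knock-in lines, where calls over all genes became 7021 higher and 3606 lower (from 4665 and 4998) and 4900 higher and 9876 lower (from 6841 and 7199). The members then had 33 rises in E545K and 42 falls between knock-in lines. Some uncalled changes near 0 turned sign. In E545K against WT, MCM2 was 0.067 with library totals, 0.034 with the GC offset and 0.035 with GC offset and block; RRM1 was -0.038 with either GC offset (-0.038 with the block) and -0.016 to 0.0458 with 1 library left out; SLBP was 0.00939 with upper quartile, 0.093 with library totals, 0.022 with the 10 CPM filter, 0.0024 with 2 genotypes, 0.0019 with voom, 0.0034 with protein-coding genes only, and -0.0143 to 0.0159 with 1 library left out. MCM10 was 0.000697 in H1047R against WT with protein-coding genes only, and GINS3 -0.029 between knock-in lines with library totals. Except where stated, the cause was not tested.

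Replicate numbers are shared between genotypes. Deviations from the genotype mean had r from -0.071 to 0.087 over 9 same-numbered pairs. Over 18 differently numbered pairs r ran from -0.103 to 0.0728. These values cannot show whether same-numbered libraries were grown or prepared together. With a replicate block, 26 members rose and 2 fell in E545K, 33 fell and 2 rose in H1047R, and 40 were lower between knock-in lines. Of the 26412 genes in that fit, 4547 rose and 4894 fell in E545K, and 7335 fell and 7059 rose in H1047R. Between knock-in lines 7072 were lower and 6659 higher. The H1047R libraries were the deepest and also the most scattered, so depth by itself does not give the precision of a value.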
